A study of Mus musculus with 16 samples.

Results

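The genes described here are 10 components of Notch signalling: the receptors Notch1, Notch2 and Notch3, the ligands Jag1, Jag2 and Dll1, the DNA-binding partner Rbpj, the target genes Hes1 and Hey1, and the inhibitor Numb. They were taken by name, matched to the Ensembl identifiers of the deposited table of UMI counts, and all 10 were present among its 32989 identifiers. UMIs are unique molecular identifiers, short random tags that let each captured RNA molecule be counted once. The 16 libraries were 3′ RNA-seq libraries of cells sorted from hair follicle stem cell (HFSC) organoids, cultures in a 3D matrix known as 3D-3C, grown for 2 weeks from C57BL/6J mice. Cells positive for integrin α6 were split by the surface marker CD34 into α6+/CD34+ HFSCs and α6+/CD34- progenitors. Each of 4 mice gave 4 libraries: both fractions without treatment, titled WT in the labels, and both fractions after 72 h of N1-acetylspermidine (N1-AcSpd), an acetylated form of the polyamine spermidine. The labels name no engineered allele. The methods of the study describe donors of both sexes with hair follicles at rest (telogen), in 2 ranges of age after birth. Which range each donor came from, and the dose of N1-AcSpd in these libraries, were not given in the sources used here. The 4 groups are therefore CD34- untreated, CD34+ untreated, CD34- N1-AcSpd and CD34+ N1-AcSpd, with n = 4 mice in each. The design asked which genes separated the fractions and which responded to N1-AcSpd.

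Notch receptors are single-pass membrane proteins that meet Jagged or Delta-like ligands on a neighbouring cell. Ligand binding lets proteases release the intracellular part of the receptor, which enters the nucleus, binds RBPJ and switches on targets such as the transcriptional repressors Hes1 and Hey1. In the skin the pathway is known for driving basal keratinocytes into the suprabasal, differentiating layers and for shaping the hair follicle lineages, with Numb acting against it by removing the receptor from the membrane.

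Library depth ran from 15480075 to 29074855 UMIs, with 22142 to 24247 genes detected. Levels are given as CPM, the UMI count of a gene scaled to a common library size, after TMM scaling, a between-library scaling built into edgeR. Cd34 itself separated the sorts: its mean was 3.19 CPM in untreated CD34- cells and 49.98 CPM in untreated CD34+ cells. The antisense gene Gm16897 overlaps Cd34 and held 96.9% as many counts. Of 11 follicle and basal markers, Cd34 among them, 6 were higher and 2 lower in CD34+ cells in each condition, and 3 were not called. Their summed level was 6664 to 7051 CPM in untreated CD34- libraries and 6285 to 7138 CPM in untreated CD34+ libraries. Of 15 markers of epidermal differentiation, 15 were lower in CD34+ cells, and their summed level was 1814 to 2451 CPM in untreated CD34- libraries against 480.8 to 532.5 CPM in untreated CD34+ libraries. The corresponding sums of the differentiation markers after N1-AcSpd were 2231 to 3094 CPM and 495.4 to 660.6 CPM. Pecam1, an adhesion protein of blood vessel lining, was abundant in all libraries (a summed endothelial list of 1687 to 2055 CPM was almost all Pecam1), while the defining vessel genes Kdr and Tek averaged 1.1 and 2.2 counts per library. Because these are bulk samples, fewer cells of a type and less RNA per cell cannot be told apart in any result given here.

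For 8 of the 10 genes the RefSeq table for GRCm38.p6 held a promoter window of 300 bases, from 250 before to 50 after an annotated start. It held none for Hes1 or Hey1, the target genes among the 10, so their promoters were not searched. Some of the 8 genes had more than 1 window. The core letters bound by RBPJ, TGGGAA on either strand (TTCCCA on the other), occurred in a window of 1 of these 8 genes, Rbpj itself. Counted by window and not by gene, they occurred in 8397 of all 32851 windows (25.6%). The stretches before the start are shown for Notch3, which was lower in HFSCs, for Dll1 and Rbpj, which were higher, for Jag1, which was lower with treatment, and for Nrarp, a target of the pathway described with the treatment. They are written 5′ to 3′ on the strand of the gene and stop before any annotated exon that overlaps the window, and the capitals mark the RBPJ core.
Notch3, chr17:32166891-32167140, minus strand: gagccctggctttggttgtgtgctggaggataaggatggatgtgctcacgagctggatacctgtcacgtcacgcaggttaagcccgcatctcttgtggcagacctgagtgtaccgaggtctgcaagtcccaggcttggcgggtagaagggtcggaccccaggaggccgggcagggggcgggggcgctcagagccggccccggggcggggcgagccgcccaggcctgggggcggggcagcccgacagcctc
Dll1, chr17:15376933-15377182, minus strand: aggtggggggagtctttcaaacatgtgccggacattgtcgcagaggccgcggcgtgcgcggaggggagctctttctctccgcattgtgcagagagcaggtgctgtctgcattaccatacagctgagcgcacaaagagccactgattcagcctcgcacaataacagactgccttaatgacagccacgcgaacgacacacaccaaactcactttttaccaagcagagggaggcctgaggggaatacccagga
Rbpj, chr5:53590096-53590213, plus strand: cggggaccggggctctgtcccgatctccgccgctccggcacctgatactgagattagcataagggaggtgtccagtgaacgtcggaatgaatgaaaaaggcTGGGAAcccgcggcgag
Jag1, chr2:137116645-137116770, minus strand: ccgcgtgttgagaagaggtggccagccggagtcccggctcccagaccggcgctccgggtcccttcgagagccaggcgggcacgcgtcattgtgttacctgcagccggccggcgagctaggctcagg
Nrarp, chr2:25180508-25180757, plus strand: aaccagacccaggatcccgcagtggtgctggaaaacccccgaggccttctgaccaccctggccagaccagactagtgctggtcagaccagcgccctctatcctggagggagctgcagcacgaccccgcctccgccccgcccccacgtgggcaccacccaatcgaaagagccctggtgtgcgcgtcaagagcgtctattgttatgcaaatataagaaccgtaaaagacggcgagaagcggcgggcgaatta
The Rbpj window shown lies at a RefSeq start inside the longer gene model given below for Rbpj. It also held TTCCCA after the printed stretch, as did an overlapping Rbpj window that is not shown. A match of letters is a description of the window. The windows of Notch3, Dll1, Jag1 and Nrarp held no match.

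Between untreated fractions, 4 of the 9 genes with enough counts for a test differed at an adjusted p under 0.05. The ligands Jag2 and Dll1 and the nuclear factor Rbpj were higher in α6+/CD34+ HFSCs, and the receptor Notch3 was lower. Of all 19049 genes tested, 32.1% were called in this comparison (16.1% higher and 16.1% lower), which is the background for the 4 of 9. After N1-AcSpd the fractions differed in 6 of 9 genes, with Notch2 and Notch3 lower and Jag1, Jag2, Dll1 and Rbpj higher in CD34+ cells, against 33.3% of all genes (16.5% higher and 16.8% lower). Whether either count is particular to Notch genes was not tested. Libraries of the compared fractions did not overlap for 32.2% of all genes without and for 34.4% with N1-AcSpd. The median log2 fold change of the 9 genes was 0.07 without and 0.16 with N1-AcSpd, beside 0.022 and -0.0068 over all genes. Both comparisons use different libraries of the same 4 mice, and the difference between them was the interaction, for which no gene of the 9 passed.

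**Figure D1:**
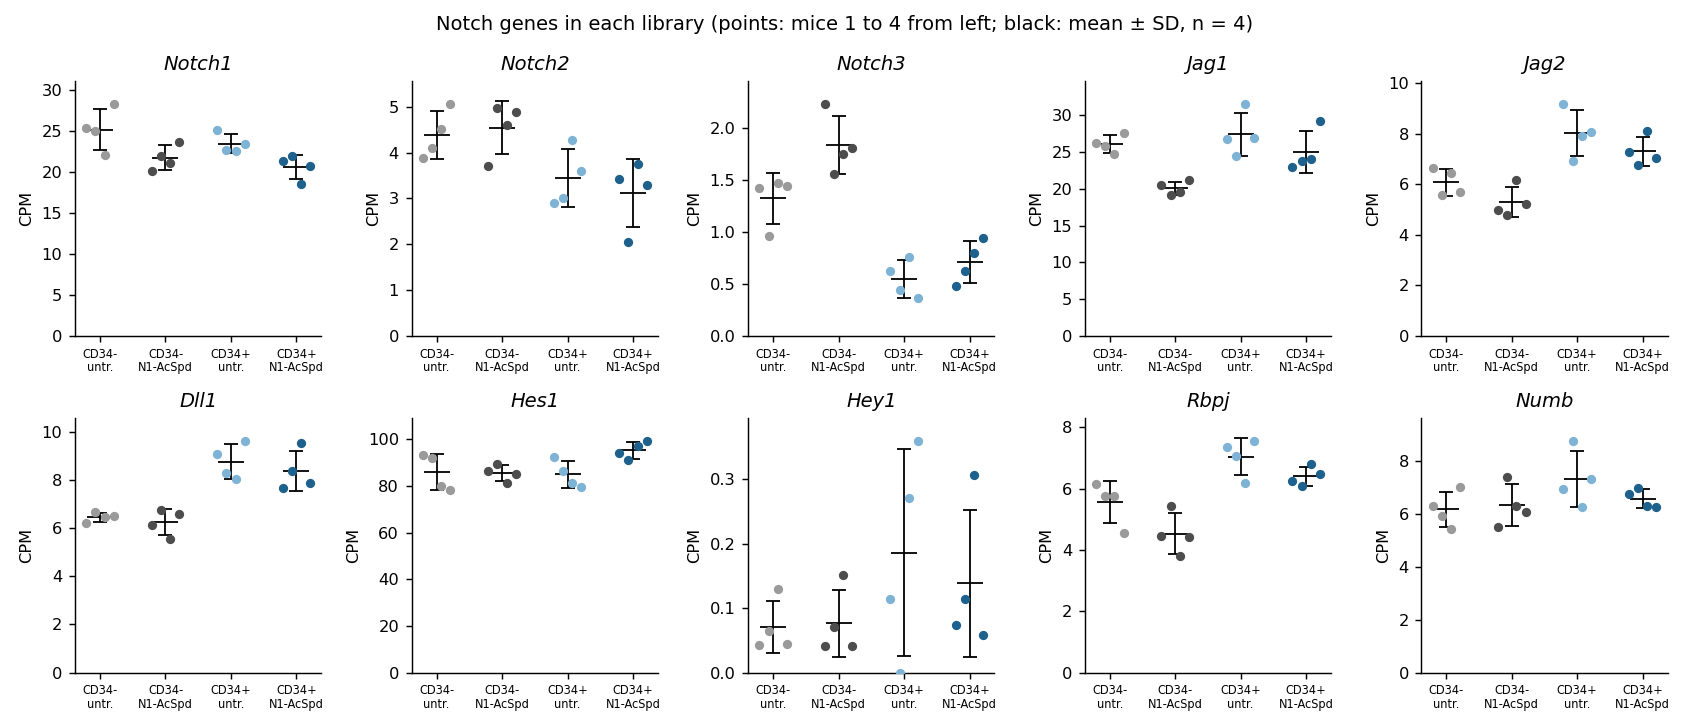
Level of each of the 10 Notch genes in the 16 libraries, in CPM on a linear axis that starts at 0 and differs between panels. Points are mice 1 to 4 from left to right within each group, and the black bars are the mean ± SD (n = 4). Notch3 lies between 0.958 and 2.23 CPM in the CD34- libraries and between 0.360 and 0.940 CPM in the CD34+ libraries, and Hey1 stayed under 0.4 CPM in every library.

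Among the receptors, Notch3 (ENSMUSG00000038146, chr17:32120820-32166852 on the minus strand of GRCm38) showed the largest difference of the 9 tested genes between fractions. In untreated CD34- cells its level was 1.42, 0.958, 1.47 and 1.44 CPM in mice 1 to 4, and in untreated CD34+ cells 0.626, 0.439, 0.759 and 0.360 CPM. With N1-AcSpd it was 2.23, 1.56, 1.75 and 1.81 CPM in CD34- cells and 0.483, 0.626, 0.798 and 0.940 CPM in CD34+ cells. All 8 CD34- libraries stood above all 8 CD34+ libraries. The log2 fold change of CD34+ over CD34- was -1.27 ± 0.26 (SE; adjusted p = 0.00194) without and -1.37 ± 0.26 (adjusted p = 0.000874) with N1-AcSpd, lower in 4 of 4 mice each time. These levels rest on 7 to 54 UMIs per library. The antisense gene Gm17276 lies over Notch3 on the other strand and held 95.7% as many counts, with equal counts in 8 of the 16 libraries, and since the sources do not state whether counting used strand, those genes cannot be told apart. Fibroblast markers moved with Notch3: their 8 genes, each with at least 1 UMI in each group, summed to 2.89 to 11 CPM in untreated CD34- and 0.668 to 2.69 CPM in untreated CD34+ libraries, and to 3.04 to 6.20 CPM and 0.529 to 1.65 CPM with N1-AcSpd. Of the 3 fibroblast markers with enough counts for a test, 2 were lower in untreated CD34+ cells, Vim and Col1a2. Their part in the Notch3 result, and that of the differentiation markers given above, was not tested.

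Notch2 (ENSMUSG00000027878, chr3:98013527-98150361, plus strand) was lower in CD34+ cells in each mouse, with and without treatment. Its untreated levels were 3.87, 4.09, 4.51 and 5.05 CPM in CD34- and 2.90, 3.02, 4.28 and 3.598 CPM in CD34+ cells. With N1-AcSpd they were 3.72, 4.97, 4.601 and 4.88 CPM in CD34- and 3.42, 2.05, 3.74 and 3.29 CPM in CD34+ cells. In both comparisons the groups overlapped, by mouse 3 of the CD34+ group in each case. The difference passed the test with N1-AcSpd (log2 fold change -0.54 ± 0.18, adjusted p = 0.029) and was -0.34 ± 0.18 without it (adjusted p = 0.162). The call with N1-AcSpd was lost when mouse 2, 3 or 4 of the CD34- group or mouse 2 of the CD34+ group was left out (-0.49, -0.53, -0.50 and -0.38), and when a whole mouse was dropped, mouse 4 (-0.53) or mouse 2, where the value shrank to -0.34. It was also lost with library totals alone (-0.42) and when only the compared groups were fitted (-0.52). Gm42819, on the same strand within the gene, held 25.5% as many counts.

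Notch1 (ENSMUSG00000026923, chr2:26457903-26516663, minus strand), a further receptor of the family, did not pass the test between fractions. Untreated CD34- cells had 25.3, 25.0, 22.1 and 28.3 CPM and untreated CD34+ cells 25.1, 22.7, 22.6 and 23.5 CPM. After N1-AcSpd the levels were 20.1, 22.0, 21.1 and 23.7 CPM in CD34- and 21.4, 21.9, 18.6 and 20.7 CPM in CD34+ cells. The fractions overlapped in both conditions, and the log2 fold changes were -0.10 ± 0.075 (adjusted p = 0.345) and -0.073 ± 0.075 (adjusted p = 0.525). Their sign turned to 0.012 and 0.043 when libraries were scaled by their totals alone. An opposite-strand gene, 0610009E02Rik, held 94.7% as many counts as Notch1, differing by at most 40 UMIs in any library, and Gm13568, also on that strand, 74.1%, so the Notch1 values cannot be told apart from those transcripts.

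The Delta-like ligand Dll1 (ENSMUSG00000014773, chr17:15367354-15376872, minus strand) was higher in HFSCs. Its levels without treatment were 6.20, 6.64, 6.45 and 6.50 CPM in CD34- and 9.05, 8.28, 8.03 and 9.61 CPM in CD34+ cells. With N1-AcSpd they were 6.11, 6.75, 5.55 and 6.56 CPM in CD34- and 7.65, 8.37, 9.51 and 7.87 CPM in CD34+ cells. Each CD34+ library exceeded each CD34- library, treated or not. The log2 fold change was 0.44 ± 0.080 (adjusted p = 0.00089) without and 0.42 ± 0.080 (adjusted p = 0.00105) with N1-AcSpd, and the call held in all 20 runs that left out 1 library or 1 mouse.

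Jag2 (ENSMUSG00000002799, chr12:112907819-112929776, minus strand), a Jagged ligand, moved the same way. Untreated CD34- cells had 6.63, 5.56, 6.45 and 5.69 CPM and untreated CD34+ cells 9.16, 6.91, 7.92 and 8.07 CPM. After N1-AcSpd the values were 4.99, 4.79, 6.16 and 5.21 CPM in CD34- and 7.28, 6.78, 8.10 and 7.05 CPM in CD34+ cells. Again all 8 CD34+ libraries lay above all 8 CD34- libraries. The log2 fold change was 0.40 ± 0.10 (adjusted p = 0.00732) and 0.46 ± 0.10 (adjusted p = 0.00236) in turn, and the untreated call was lost only without mouse 4 (0.36) among the runs that left out a library or mouse.

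The other Jagged ligand, Jag1 (ENSMUSG00000027276, chr2:137081456-137116644, minus strand), passed the test between fractions with N1-AcSpd and not without it. Its untreated levels were 26.2, 25.8, 24.8 and 27.6 CPM in CD34- and 26.8, 24.4, 31.5 and 26.9 CPM in CD34+ cells, which overlapped (log2 fold change 0.07 ± 0.083, adjusted p = 0.598). Treated CD34- cells had 20.5, 19.1, 19.6 and 21.1 CPM and treated CD34+ cells 23.0, 23.7, 24 and 29.3 CPM. The treated groups did not overlap, with a log2 fold change of 0.32 ± 0.083 (adjusted p = 0.00885; higher in 4 of 4 mice). The interaction, which tests whether the fractions differed more with N1-AcSpd than without, was 0.25 ± 0.12 for Jag1 and did not pass (adjusted p = 1).

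Rbpj (ENSMUSG00000039191, chr5:53466152-53657362, plus strand), the DNA-binding protein on which the released receptor acts, was higher in HFSCs. Without treatment its levels were 6.15, 5.75, 5.76 and 4.56 CPM in CD34- and 7.34, 7.08, 6.18 and 7.56 CPM in CD34+ cells. With N1-AcSpd they were 4.46, 5.43, 3.80 and 4.43 CPM in CD34- and 6.24, 6.09, 6.81 and 6.46 CPM in CD34+ cells. The fractions did not overlap in either condition, although in untreated cells the lowest CD34+ library (6.18 CPM, mouse 3) was next to the highest CD34- library (6.15 CPM, mouse 1). The log2 fold change was 0.34 ± 0.11 (adjusted p = 0.0285) without and 0.50 ± 0.11 (adjusted p = 0.00294) with N1-AcSpd. The untreated call was the less steady: it was lost without mouse 1, 2 or 4 of the CD34+ group (0.32, 0.34 and 0.30), without mouse 4 of the CD34- group (0.26), and with mouse 1, 2 or 4 dropped altogether (0.38, 0.36 and 0.22). DESeq2 (0.32) and edgeR without the filter on low counts (0.33) did not call it either.

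Hes1 (ENSMUSG00000022528, chr16:30064384-30067796, plus strand), the classic target of the pathway and a basic helix-loop-helix repressor, did not separate the untreated fractions. CD34- cells had 93.2, 92.1, 80.1 and 78.1 CPM and CD34+ cells 92.3, 86.6, 81.1 and 79.5 CPM, close to each other within each mouse. The log2 fold change was -0.017 ± 0.064, with an interval of ± 2 SE from -0.14 to 0.11. After N1-AcSpd the levels were 86.3, 89.5, 81.4 and 84.9 CPM in CD34- and 94.1, 90.9, 97.0 and 99.3 CPM in CD34+ cells. These did not overlap, as for 34.4% of all genes, yet the difference of 0.16 ± 0.064 missed the threshold (adjusted p = 0.0777). It passed when libraries were scaled by totals (0.27) or when only the compared groups were fitted (0.17).

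Hey1 (ENSMUSG00000040289, chr3:8663359-8667256, minus strand), the second target among the 10 genes, had too few counts for a test, a mean under the minimum of 5 per library. Its counts in mice 1 to 4 were 1, 1, 3 and 1 in untreated CD34- cells and 2, 0, 5 and 7 in untreated CD34+ cells. With N1-AcSpd they were 1, 2, 4 and 1 in CD34- and 2, 2, 5 and 1 in CD34+ cells. No difference was detectable at this depth, and the count of 0 in mouse 2 allows a level of up to 0.165 CPM (3 counts, counting error only).

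Numb (ENSMUSG00000021224, chr12:83794034-83921934, minus strand), the inhibitor, had 6.32, 5.94, 5.46 and 7.04 CPM in untreated CD34- and 6.94, 8.78, 6.29 and 7.35 CPM in untreated CD34+ cells. It was higher in CD34+ cells of 4 of 4 mice, the groups overlapped, and the log2 fold change of 0.25 ± 0.11 did not pass (adjusted p = 0.112). With N1-AcSpd the levels were 5.53, 7.42, 6.31 and 6.07 CPM in CD34- and 6.76, 7.003, 6.32 and 6.28 CPM in CD34+ cells, a difference of 0.058 ± 0.11 (adjusted p = 0.77). Scaling by library totals alone brought the untreated difference past the threshold (0.36).

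**Figure D2:**
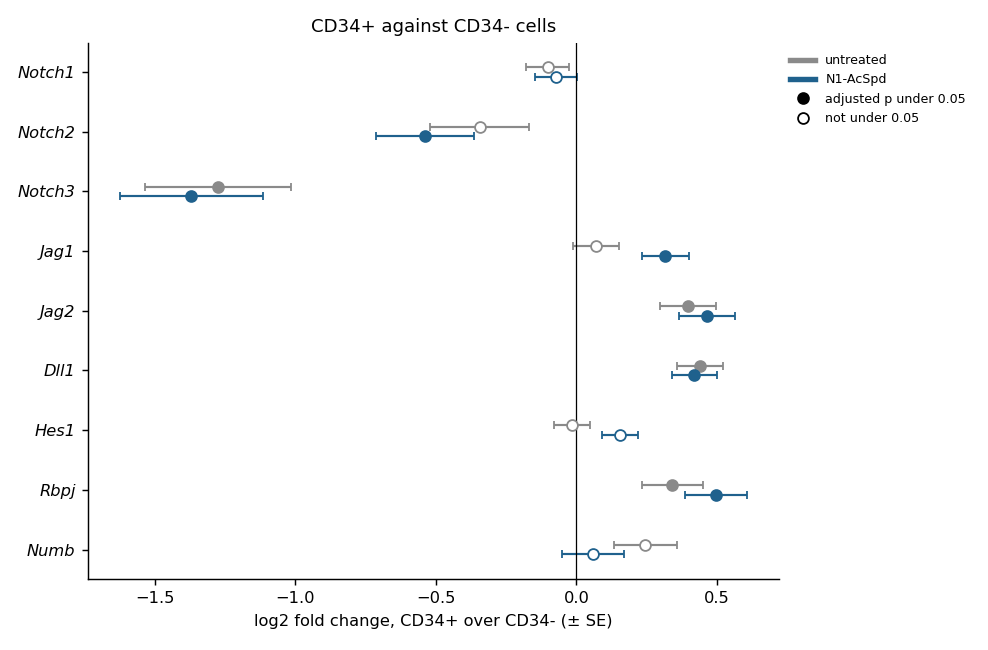
Log2 fold change of CD34+ over CD34- cells for the 9 tested Notch genes, untreated in grey and with N1-AcSpd in blue. Points are estimates of edgeR's quasi-likelihood fit with bars of ± SE, and filled points passed an adjusted p of 0.05. Notch3 lies at -1.27 and -1.37, and Dll1, Jag2 and Rbpj lie to the right in both conditions.

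The choice of scaling bears on the direction of small differences between fractions. With library totals alone the median log2 fold change over all genes moved to 0.14 without and 0.11 with N1-AcSpd, and the calls over all genes in untreated cells moved from 3059 higher and 3064 lower to 4862 higher and 1759 lower, and with N1-AcSpd from 3147 and 3200 to 4794 and 1903. Among the 9 Notch genes the split was 4 higher and 1 lower without treatment and 5 higher and 1 lower with it. Notch3 was lower and Dll1, Jag2 and Rbpj were higher than that shifted median under either scaling.

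N1-AcSpd was compared with no treatment in each fraction and then over both. No gene of the 9 passed in a single fraction by edgeR, where 0.614% of all genes were called in CD34- and 0.325% in CD34+ cells. Unadjusted p-values under 0.05 were found for 3 of the 9 genes in CD34- cells (Jag1, Notch1 and Rbpj, all lower; 13.6% of all genes) and for 2 in CD34+ cells (Notch1 lower, Hes1 higher; 13.2% of all genes). DESeq2 called 1 of the 9 in CD34- cells, Jag1, and 0 in CD34+ cells, where it called 558 and 423 of all 19049 genes. Over both fractions together, Jag1 and Notch1 passed, both lower with N1-AcSpd, where 4.87% of all genes were called and 2.17% were lower. The median log2 fold change of the 9 genes was -0.046 in CD34-, -0.13 in CD34+ and -0.061 over both, beside 0.0001, -0.014 and -0.0077 for all genes.

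Jag1 in CD34- progenitors had the smallest p-value of the 9 genes for the treatment. Its 4 treated libraries, at 19.1 to 21.1 CPM, all lay below the 4 untreated ones, at 24.8 to 27.6 CPM. Groups that did not overlap were found for 9.05% of all genes in this comparison. The differences within mice 1 to 4 were -0.35, -0.42, -0.33 and -0.38 on the log2 scale. The fitted change was -0.38 ± 0.083 (adjusted p = 0.0649), and it passed when the mouse was added as a block (-0.38, adjusted p = 0.0328). Over the 8 alternative settings its adjusted p ran from 0.00183 to 0.131. Leaving out mouse 3 of the untreated or mouse 4 of the treated CD34+ group, which are not among the compared libraries, also brought it past the threshold (-0.39 and -0.38). In CD34+ cells Jag1 was lower in mice 1, 2 and 3 and higher in mouse 4, with a change of -0.13 ± 0.083 (adjusted p = 0.539). Over both fractions the change was -0.26 ± 0.059 (adjusted p = 0.0257), and this call was lost without mouse 1 of the untreated CD34- group, mouse 2 or 3 of the treated CD34- group, mouse 1 or 3 of the treated CD34+ group, or the whole of mouse 1, 2 or 3, with values from -0.30 to -0.21 over all 20 runs, and with thinning (-0.25).

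Notch1 changed less but in each mouse. It was lower with N1-AcSpd in 4 of 4 mice in CD34- cells (-0.21 ± 0.075, adjusted p = 0.222) and in 4 of 4 in CD34+ cells (-0.18 ± 0.075, adjusted p = 0.322), where the groups did not overlap, as for 6.81% of all genes. Over both fractions it was lower by a log2 change of -0.20 ± 0.053 (adjusted p = 0.0498). This call stood at the threshold: leaving out 14 of the 16 libraries, each alone, ended it, all but mouse 3 of untreated CD34- and mouse 4 of treated CD34- cells, as did leaving out each of the 4 mice, with values from -0.23 to -0.17. It was also lost with DESeq2 size factors, library totals, no filter on low counts and thinning (-0.19, -0.19, -0.20 and -0.18). The opposite-strand overlap named above applies to this value too.

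Of the other members, Rbpj was lower with N1-AcSpd in 4 of 4 mice of the CD34- fraction (-0.29 ± 0.11, adjusted p = 0.256) and by -0.22 ± 0.078 over both fractions (adjusted p = 0.126). Jag2 was -0.20 ± 0.10 in CD34- and -0.13 ± 0.099 in CD34+ cells (adjusted p = 0.398 and 0.639). Notch3 stood higher in treated CD34- cells of 4 of 4 mice without overlap, as for 9.05% of all genes. Its change was 0.47 ± 0.25 there (adjusted p = 0.434) and 0.42 ± 0.18 over both fractions (adjusted p = 0.203). None of these differences passed the test. Hes1 was higher in treated CD34+ cells of 4 of 4 mice, by 0.17 ± 0.064 (adjusted p = 0.288), and at -0.0058 ± 0.064 in CD34- cells. Dll1, Notch2 and Numb had changes between -0.15 and 0.052 in the separate fractions, each with an adjusted p of at least 0.622.

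**Figure D3:**
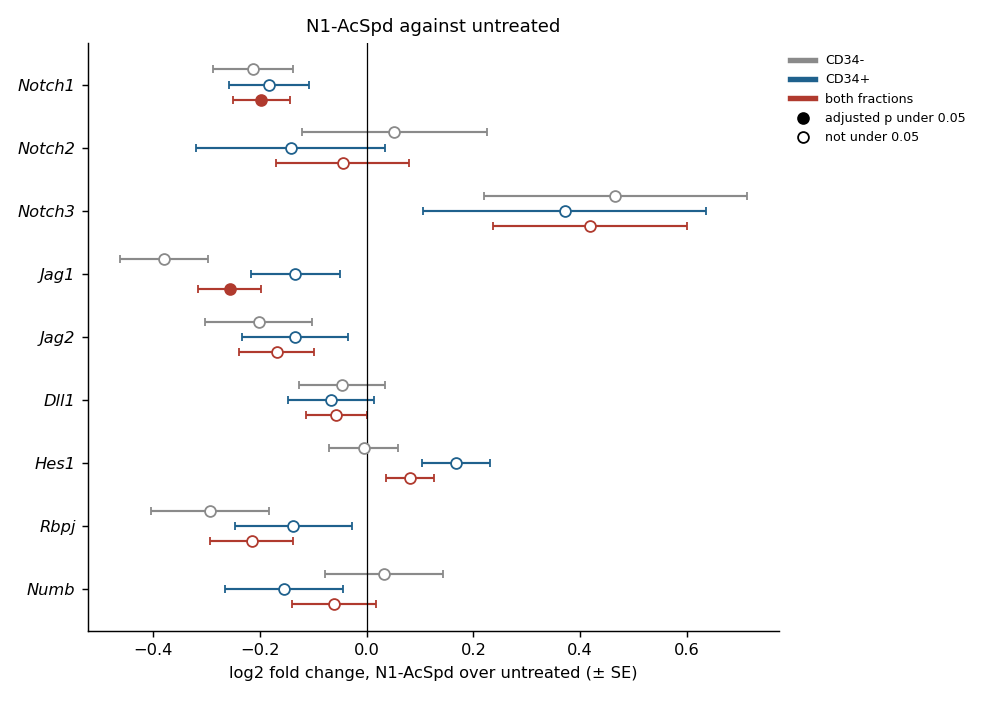
Log2 fold change of N1-AcSpd over untreated cells for the 9 tested Notch genes in CD34- cells (grey), CD34+ cells (blue) and over both fractions (red), with bars of ± SE. Filled points passed an adjusted p of 0.05, which only Jag1 at -0.26 and Notch1 at -0.20 did, over both fractions. Notch3 has the widest bars, at SEs of 0.18 to 0.27.

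The interaction between fraction and treatment passed for none of the 19049 genes by edgeR (0.00%), with 799 genes (4.19%) at an unadjusted p under 0.05, none of them among the 9. DESeq2 called 72 of all genes and 0 of the 9. Jag1 (0.25 ± 0.12) and Hes1 (0.17 ± 0.090) had the smallest p-values of the 9, 0.0543 and 0.0768. A different response of the 2 fractions was therefore not shown for any Notch gene, and at n = 4 the intervals of ± 2 SE reached from 0.012 to 0.48 for Jag1 and from -0.0077 to 0.35 for Hes1.

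The other genes of the pathway were read from a list of 68, of which 63 were in the table and 56 had enough counts. In untreated cells 25 of the 56 differed between fractions, 15 higher and 10 lower in HFSCs, against the 32.1% given above, and with N1-AcSpd 23 of 56, 11 higher and 12 lower, against 33.3%. Scaling by library totals gave 21 higher and 6 lower, and 17 higher and 7 lower. Of the 12 targets in the list 7 had enough counts, and 4 of these were lower and none higher in untreated HFSCs, and 5 lower and none higher with N1-AcSpd. Of all genes, 16.1% and 16.8% were lower in turn. With library totals 3 of the 7 were lower in each condition, the 3 named next. Nrarp, a feedback inhibitor that the pathway induces, was at -0.47 ± 0.11 (adjusted p = 0.00416) and -0.68 ± 0.11 (adjusted p = 0.000232). The cell cycle inhibitor Cdkn1a was at -0.61 and -0.79 and the cyclin gene Ccnd1 at -0.47 and -0.63. These 3 genes did not overlap between the fractions in either condition, as for 32.2% of all genes without and 34.4% with N1-AcSpd. LTO1, on the other strand, overlaps Ccnd1 and held 76.5% as many counts. Since the use of strand is not stated, the Ccnd1 values cannot be told apart from that gene, and Nrarp has a similar overlap, given below. The differentiation and fibroblast markers moved between the same groups, and their part in these differences was not tested.

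**Figure D4:**
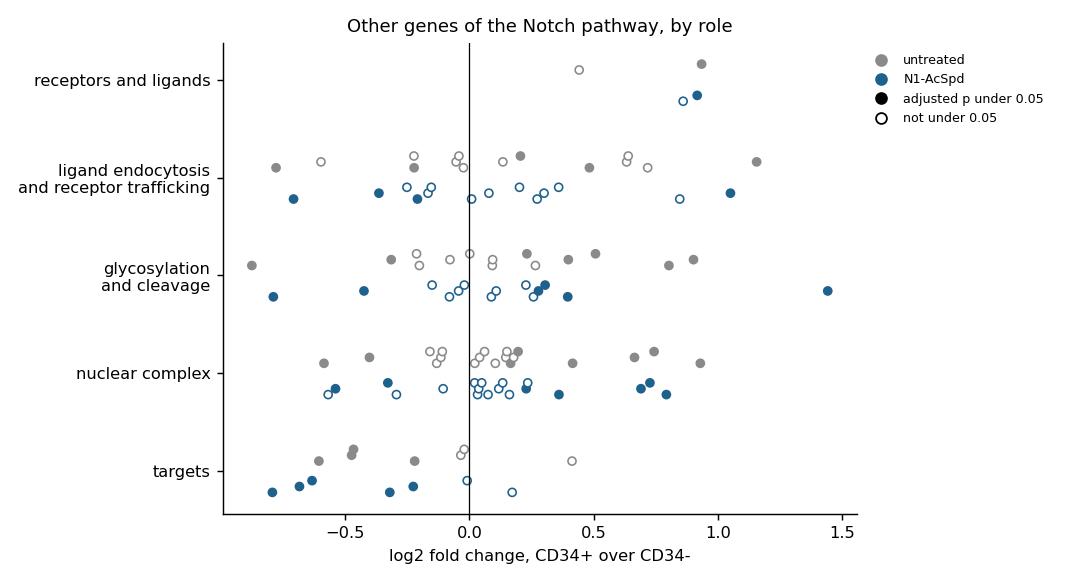
Log2 fold change of CD34+ over CD34- cells for the 56 other Notch pathway genes with enough counts, in rows by role, untreated in grey and with N1-AcSpd in blue; each point is 1 gene and filled points passed an adjusted p of 0.05. The filled points of the target row all lie below 0, 4 without and 5 with N1-AcSpd, while ligand endocytosis, glycosylation and cleavage and the nuclear complex hold filled points on both sides.

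Among ligands outside the 10 genes, Dlk2, a non-canonical member of the Delta-like family, was higher in HFSCs by 0.93 ± 0.075 without and 0.92 ± 0.075 with N1-AcSpd (adjusted p = 1.16e-06 and 1.01e-06). Abcc10, which overlaps the end of Dlk2 on the other strand, held 37.5% as many counts. Of the 14 genes of ligand endocytosis and receptor trafficking, 3 were higher and 2 lower in untreated HFSCs, against 32.1% of all genes called. Itch, a ubiquitin ligase that marks Notch for degradation, was at -0.78 and -0.71, and Dtx3l at 0.48 in untreated cells, a call lost without mouse 3 (0.40). Parp9, which overlaps Dtx3l on the other strand, held 62.0% as many counts. With N1-AcSpd 1 of the 14 was higher and 3 were lower, against 33.3% of all genes called. Aak1 was among the lower at -0.36, where 7 of the 20 leave-out runs lost the call (-0.41 to -0.32 over all 20), as did library totals (-0.25). Gm44093, on the same strand within Aak1, held 53.3% as many counts.

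Of the 14 genes that glycosylate or cut the receptor, 5 were higher and 2 lower in untreated HFSCs, against 32.1% of all genes called. The protease gene Furin, whose product makes the first cut in the receptor during its maturation, was at -0.87 and -0.79 in the 2 conditions. Poglut1, which adds glucose to the receptor, was at 0.40 and 0.28, the treated call lost without mouse 3 or 4 (0.27 and 0.20). Rfng, a Fringe glycosyltransferase, was at -0.31 in untreated cells, lost without mouse 2 or 3 (-0.32 and -0.34), with library totals (-0.20) and with only the compared groups (-0.32), and the γ-secretase subunit gene Aph1b at 0.51, lost in 7 of the 20 leave-out runs (0.37 to 0.65 over all 20). With N1-AcSpd 4 were higher and 2 lower, against 33.3% of all genes called. The sheddase gene Adam17 was at 0.30 and the γ-secretase gene Ncstn at 0.40. Iah1, on the other strand, overlaps Adam17 and held 120.7% as many counts. Since the use of strand is not stated, the Adam17 value cannot be told apart from that gene. For Ncstn, 7 of the 20 runs ended the call (0.31 to 0.50 over all 20), as did fitting only the compared groups (0.41) and thinning (0.31).

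In the nuclear complex 6 of 19 genes were higher and 2 lower in untreated HFSCs, and 5 higher and 2 lower with N1-AcSpd. Of all genes, 32.1% and 33.3% were called in turn. The co-repressor gene Tle1 (0.74 and 0.69) and the RBPJ-interacting co-repressor Cir1 (0.42 and 0.36) were higher in both. Sp9 and Scrn3, which overlap Cir1 on the other strand, held 31.3% and 25.6% as many counts. The call of Cir1 with N1-AcSpd was lost without mouse 4 of the CD34+ group (0.29) and with mouse 2 or 4 dropped altogether (0.37 and 0.30). Maml2, a co-activator of the Mastermind family, was at 0.93 and 0.79, with the calls lost in 7 and 14 of the 20 runs (0.75 to 1.06 and 0.54 to 0.94), and the treated call also without the filter on low counts (0.79) and with only the compared groups (0.81). Hdac1, a histone deacetylase, was at -0.58 and -0.54, and the co-repressor Tle3 at -0.40 in untreated cells, lost in 8 of the 20 runs (-0.61 to -0.31), with library totals (-0.29), with only the compared groups (-0.40) and with libraries thinned to the smallest (-0.37).

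With N1-AcSpd 1 of the 56 other pathway genes passed in CD34- cells and 0 in CD34+ cells by edgeR. Of all genes, 0.614% and 0.325% were called in turn. Before adjustment, edgeR's p fell below 0.05 for 11 of the 56 in the CD34- comparison, beside 13.6% of all genes. In the CD34+ comparison it did so for 12, beside 13.2%. DESeq2 called 2 of the 56 in CD34+ cells and 423 of all 19049 genes. Nrarp was the gene that passed by edgeR in CD34- cells (chr2:25180758-25183339, plus strand). Its levels in CD34- cells were 5.68, 6.33, 6.37 and 6.50 CPM without and 9.78, 8.24, 9.01 and 8.78 CPM with N1-AcSpd. In CD34+ cells they were 3.70, 3.90, 5.31 and 4.99 CPM without and 6.09, 5.18, 5.83 and 5.17 CPM with it. Each mouse was higher with treatment in both fractions, and only the CD34- groups stood apart without overlap, as for 9.05% of all genes. The change was 0.53 ± 0.11 in CD34- (adjusted p = 0.0462), 0.32 ± 0.11 in CD34+ (adjusted p = 0.243) and 0.42 ± 0.076 over both fractions (adjusted p = 0.00925). Of the 20 leave-out runs, 16 ended the CD34- call, at values from 0.44 to 0.57 over all 20, as did no filter on low counts, only the compared groups and thinning (0.52, 0.52 and 0.52), and the call over both fractions without mouse 1 or 2 (0.31 and 0.43). An antisense gene, Gm38287, held the same count as Nrarp in all 16 libraries, so they cannot be told apart. Markers of epidermal differentiation moved too, with 4 of 15 higher and 0 lower over both fractions. Of 11 follicle and basal markers, 0 were higher and 2 lower there. Of all 19049 genes, 514 were higher and 414 lower (4.87% called). The part of either marker list in the result was not tested.

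Over both fractions 3 of the 56 passed, 1 higher and 2 lower with N1-AcSpd. Of all genes, 4.87% were called in this comparison and 2.17% were lower. Beside Nrarp, L3mbtl3, a chromatin reader that binds RBPJ, was lower in 4 of 4 mice (-0.37 ± 0.079, adjusted p = 0.0185). With the mouse as a block 7 of the 56 passed, and the calls over all 19049 genes went from 928 to 1551. The call of L3mbtl3 was lost in each of the 4 runs without a mouse (-0.44, -0.36, -0.34 and -0.36). In the interaction 0 of the 56 passed by edgeR or DESeq2 and 3 had an unadjusted p under 0.05.

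**Figure D5:**
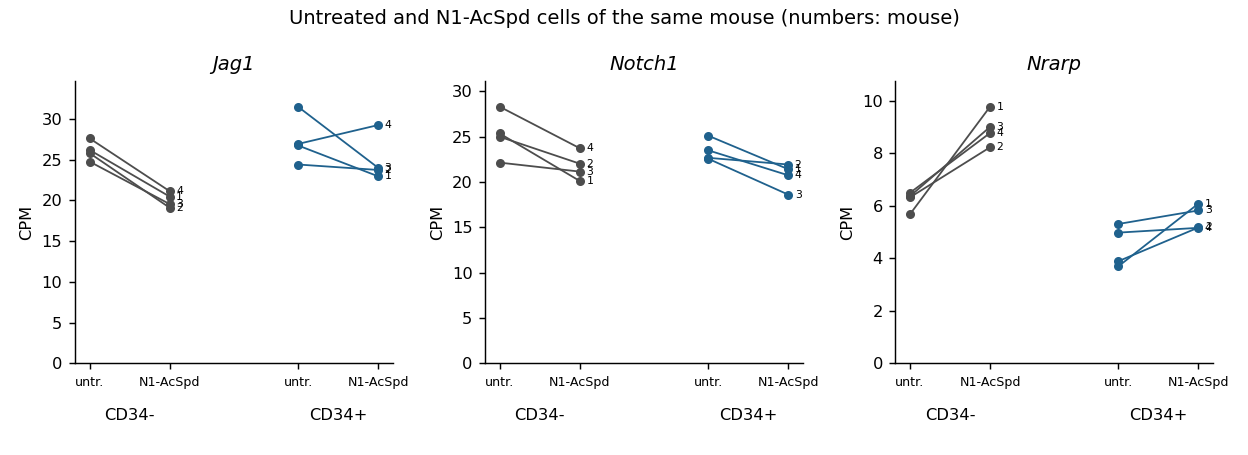
Levels in CPM of Jag1, Notch1 and Nrarp in untreated and N1-AcSpd-treated cells, with a line joining the libraries of each mouse (numbered 1 to 4), CD34- in dark grey and CD34+ in blue, on axes that start at 0. Lines fall for Jag1 and Notch1 in all mice except Jag1 in CD34+ cells of mouse 4, and rise for Nrarp in all.

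The gene most like each member over the 16 libraries was found by the root mean square (RMS) difference of log2 CPM after centring each gene, among genes averaging 50 or more counts per library that do not overlap the member in the annotation. Nearest to Notch3 was Ell2 (RMS 0.178, where the median gene had 0.53), followed by Ces2g (0.178) and Gm48610 (0.179). For Jag1 it was Fermt1 at 0.0994, then Map3k12 at 0.102 and Sh3pxd2b at 0.104. Dll1 was closest to Pigyl (0.0847), Jag2 to Ndst1 (0.0981) and Rbpj to Rcbtb2 (0.0876). Hes1 was closest to Atf1 (0.061) and Notch1 to Slc39a6 (0.0818). Notch2 and Numb came nearest to Clcn7 (0.131) and Tubgcp6 (0.0935). None of these nearest genes was another of the 10 members, but Notch3 and Hey1 averaged under 50 counts and so were not among the candidates. These values describe 16 libraries that share mice and fractions.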

How the data were processed

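The 16 libraries were made from sorted cells whose RNA was reverse transcribed with sample barcodes, pooled, amplified and tagmented, per the labels. According to the methods of the study, the authors separated reads by barcode and UMI, placed them with kallisto (0.45.0 in the submitters' processing notes) on mm10, and counted unique UMIs per gene. The deposited table holds raw counts per Ensembl gene; the annotation release and the use of strand were not given in the sources used here. Its 156050 empty cells were read as 0, and 94 of 32989 identifiers, with 0.125% of the counts, had no entry in GENCODE on GRCm38.

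Genes with a mean of at least 5 counts (19049) were fitted with edgeR 4.0.16 in R 4.3.3 (TMM, quasi-likelihood F-test, 1 mean per group, all 16 libraries, two-sided), and p-values were adjusted by Benjamini-Hochberg over all 19049 genes in each of 6 comparisons, called under 0.05. Each SE is the estimate over √F, in absolute value. Differences within a mouse are of log2(CPM + 0.5). Scripts were tested on simulated data. DESeq2 1.42.0, other scalings and filters, a block for the mouse, thinning of libraries to the smallest, and leaving out each library and mouse were tried as alternatives. All 10 genes are named, with up to 8 increases and 8 decreases among called pathway genes averaging 50 or more counts, some of which are not reported here. Members and lists were chosen with earlier results of these data known.

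The labels give replicate numbers and do not name the donor. The methods of the study describe the biological replicates as independent donors, with untreated and treated cells from each. Replicate numbers were therefore read as donor mice, and the pairing of libraries rests on that reading. Deviations from the group means correlated at r = 0.0237 on average over 24 same-mouse pairs (-0.0885 to 0.118) and at -0.00789 over other pairs. No 2 libraries agreed within sampling noise (lowest chi-square per degree of freedom 26).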

Additional observations from a re-analysis of the deposited data

Results flagged for a closer look

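In each group of 4 libraries, the highest or lowest value was set against the others by Dixon's ratio of the gap to the range, at the 95% level. Of 40 such groups for the 10 Notch genes, 2 passed, and chance alone passes about 1 in 20.

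Jag1 in mouse 4 of the CD34+ N1-AcSpd group was at 29.3 CPM, while the other 3 libraries were at 23.0, 23.7 and 24 CPM. This is the library in which Jag1 was higher with N1-AcSpd than without.

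Notch3 in mouse 2 of the CD34- untreated group was at 0.958 CPM, below 1.42, 1.44 and 1.47 CPM in the other mice. It still lay above the 8 CD34+ libraries.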

How the results depend on the processing

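Over 54 values of log2 fold change (9 Notch genes in 6 comparisons), 1494 alternative runs gave the same direction and side of the threshold in 1390, a lost call in 49, a gained one in 7 and a turned sign in 48. The 12 called values kept their direction in all 334 of their runs and lost the call in 49. With library totals alone Notch1 between fractions turned to 0.012 without and 0.043 with N1-AcSpd, untreated Hes1 to 0.097, and the Hes1 treatment effect in CD34- cells to 0.001. Thinning turned the treatment effect of Numb in CD34- cells to -0.021 and the interactions of Jag2 and Dll1 to -0.04 and 0.025.

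Leaving out libraries or mice turned signs in these ranges: between fractions, untreated Jag1 -0.03 to 0.12 and Hes1 -0.06 to 0.024, and treated Numb -0.014 to 0.14. For the treatment in CD34- cells the ranges were -0.025 to 0.14 for Notch2, -0.086 to 0.013 for Dll1, -0.049 to 0.036 for Hes1 and -0.071 to 0.12 for Numb. In CD34+ cells they were -0.26 to 0.013 for Notch2 and -0.17 to 0.009 for Dll1, and over both fractions -0.093 to 0.032 for Notch2. Interactions ranged from -0.031 to 0.099 for Notch1, -0.46 to 0.20 for Notch3, -0.18 to 0.076 for Dll1 and -0.03 to 0.26 for Rbpj.

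For the treatment in CD34- cells, 1 Notch gene was called by DESeq2 and with the mouse as a replicate block, against 0, and 0 other pathway genes against 1 with no filter, with only the compared groups and with thinning. In CD34+ cells DESeq2 called 2 other pathway genes against 0. Over both fractions 1 Notch gene in place of 2 was called with DESeq2 size factors, library totals or no filter, and 0 with thinning, and 5, 10 and 7 other pathway genes in place of 3 with edgeR's own filter, DESeq2 and the replicate block. Leave-out runs gave 2 to 4 calls among the Notch genes between untreated fractions (2 without mouse 4) and 15 to 23 among the other pathway genes with N1-AcSpd (15 without mouse 4). For the treatment they gave 0 to 1 Notch genes and 0 to 1 others in CD34-, 0 to 1 others in CD34+, and 0 to 2 and 0 to 5 over both. The causes were not tested. The replicate block changed no other call of a Notch gene (4 between untreated fractions and 6 with N1-AcSpd). Fits of only the compared groups could not be made for the effect over both fractions or the interaction. Levels under about 2 CPM (Notch3, Hey1) are limited by depth.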
